A study of Mus musculus with 6 samples.

Results

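Chemokines are small secreted proteins that steer moving cells, and their receptors are mainly G-protein-coupled receptors on the cells that answer. All genes named as chemokine ligands or receptors were described here in cultured mouse aortic endothelial cells (MAEC) labelled Oct4 KO. The members were every protein-coding gene whose symbol is a numbered Ccl, Cxcl, Ccr, Cxcr or Ackr gene, or Cx3cl1, Xcl1, Cx3cr1, Xcr1 or Ccrl2. They were 67 of the 54532 genes in the table, and 7 of the 67 were further copies of Ccl19, Ccl21 and Ccl27 genes on unplaced scaffolds, each with 0 counts in every library. The other 60 lie on chromosomes and comprise 37 ligand genes and 23 receptor genes. Cxcl11 was not a member, because the table annotates it as a polymorphic pseudogene, and Pf4 and Ppbp, which encode CXC chemokines under other names, were read apart from the members.

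Chemokine ligands are grouped by the spacing of their first cysteines into CC, CXC, CX3C and XC families. CXC ligands with a glutamate-leucine-arginine (ELR) motif draw neutrophils, those induced by interferon draw activated T cells, and CC ligands draw monocytes, eosinophils and lymphocytes. Ligands bind heparan sulphate on the vessel wall, conventional receptors signal through G proteins, and atypical receptors bind or take up ligand without that signalling. Endothelial and stromal cells of the vessel wall are known sources of Ccl2, Cxcl12 and Cx3cl1.

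The series compares 3 female and 3 male bulk RNA-seq libraries, prepared from untreated primary cultures grown from the aortas of mice with an endothelial-specific Oct4 (Pou5f1) knockout. All 6 libraries carry the knockout label, and strain, age and the driver of the deletion are not given in the sources used here. Wild-type cells were not analysed here, so each comparison is of female with male knockout cells and shows nothing of the effect of the deletion. Whether libraries of one sex stem from different cultures or mice is not stated, so the p-values reflect the spread among these samples alone, possibly a technical one.

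Total counts were 19299742 to 23064738 per library. Xist had 21282 to 31900 counts in female against 0 to 8 in male libraries, and Ddx3y had 0 counts in every female library. Pou5f1 had 0 counts in all 6 libraries, which without wild-type cells does not check the knockout label. The labelled cell type was not borne out by its markers: of 12 endothelial marker genes 10 were under 1 CPM, the count scaled to the effective library size, in every library, and Emcn, Cldn5 and Robo4 had 0 counts throughout. The summed level of 10 fibroblast markers was 15358 to 17283 CPM in female against 7225 to 7869 CPM in male libraries. Of these 10, 7 were higher in female cells, led by Dcn (6375 ± 448 and 442 ± 58.7 CPM), Fbln1 (70.9 ± 8.71 and 596 ± 45.4 CPM) and Col1a2 were lower, and Col1a1 was not called. The summed level of 7 smooth muscle markers was 60.9 to 65.2 CPM in female and 155 to 168 CPM in male libraries, with 3 of the 4 tested lower in female cells. Smtn alone made up most of this sum (57.5 ± 2.07 and 132 ± 5.11 CPM). Acta2 was at 3.71 ± 0.696 and 23.3 ± 1.75 CPM, and Myh11, Tagln, Cnn1 and Des were under 1 CPM in every library. Of 4 lymphatic markers, Pdpn, which fibroblasts also express, made up nearly all of the sum (1360 ± 22.9 and 418 ± 22.7 CPM), Flt4 was at 10.05 ± 1.15 and 1.02 ± 0.115 CPM, and Prox1 and Lyve1 were under 1 CPM in both sexes. Of 12 macrophage and leukocyte markers, Ptprc, Adgre1, Fcgr1 and Cd3e had 0 counts in all 6 libraries, and the summed level was 71.2 to 88.8 CPM in female against 78.1 to 94.5 in male libraries. The part of fibroblast-like and smooth-muscle-like cells in the differences below was not tested. In bulk RNA, fewer cells of a type and less RNA per cell cannot be told apart.

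The sequences before the start sites of 3 members are shown because these genes carry the letters of known inflammatory control elements and fell on both sides of the comparison. RefSeq promoter windows (GRCm38.p6, 250 bases before to 50 after the start) were found for 14 of the 21 members that could be tested. Ccl2, Ccl7, Ccl11, Ccl5, Cxcl5, Cxcl16 and Ccr10 had no entry. The windows were searched on both strands for the NF-kappaB-like letters (GGGA, N, TTTCC in a row, or GGGAA and TTCCC in a row) and for the interferon response letters (GAAA, NN, GAAA in a row), where N is any base. An NF-kappaB-like match was found in 0.451% of all 32851 windows of this length and an interferon response match in 3.44%. Among the members, Cxcl1 and Cxcl2 held the former and Cxcl10 the latter. Other forms of the NF-kappaB letters were not searched. A window without an NF-kappaB-like match, that of Cxcl10 among them, can therefore still hold another form. The 250 bases before the start follow, 5′ to 3′ on the gene's strand, with the match in capitals: Cxcl1 from chr5:90890995-90891244 (plus strand), Cxcl2 from chr5:90903649-90903898 (plus strand) and Cxcl10 from chr5:92348890-92349139 (minus strand).
Cxcl1: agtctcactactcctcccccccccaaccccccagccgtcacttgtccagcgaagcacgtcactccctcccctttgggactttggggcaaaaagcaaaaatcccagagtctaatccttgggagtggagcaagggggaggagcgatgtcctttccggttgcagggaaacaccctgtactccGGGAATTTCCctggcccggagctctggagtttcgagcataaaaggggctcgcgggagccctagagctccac
Cxcl2: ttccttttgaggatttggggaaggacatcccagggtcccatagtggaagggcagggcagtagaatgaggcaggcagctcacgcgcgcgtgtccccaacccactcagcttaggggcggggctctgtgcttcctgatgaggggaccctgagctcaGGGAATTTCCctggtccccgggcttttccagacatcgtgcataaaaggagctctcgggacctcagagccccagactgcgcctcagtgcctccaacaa
Cxcl10: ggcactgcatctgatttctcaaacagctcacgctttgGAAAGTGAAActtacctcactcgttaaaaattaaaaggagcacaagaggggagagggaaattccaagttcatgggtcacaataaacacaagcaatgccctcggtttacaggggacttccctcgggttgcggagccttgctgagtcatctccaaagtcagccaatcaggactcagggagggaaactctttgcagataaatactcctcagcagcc
Cxcl1 and Cxcl2 held the same 10 letters, GGGAATTTCC, which began 71 and 97 bases before their start sites. In Cxcl10 the letters GAAAGTGAAA began 213 bases before the start. A match is a description of the letters and not of a bound site, and the windows of the other 11 members held neither set of letters.

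Of the 60 members on chromosomes, 44 were read in at least 1 library and 20 reached a mean of 1 CPM in at least 1 sex. The low-count filter left 21 to test: these 20 and Ccl5. Fold changes are given as log2 of female over male with their standard error (SE), from edgeR's quasi-likelihood test over all 14814 tested genes. A gene was called at a Benjamini-Hochberg adjusted p under 0.05. Of the 21, 9 were higher in female cells (Ccl2, Ccl8, Ccl11, Ccl27a, Cxcl2, Cxcl10, Ccr1, Ccr10 and Cxcr4) and 8 were lower (Cxcl1, Cxcl5, Cxcl12, Cxcl16, Cx3cl1, Ccl9, Ackr3 and Ccrl2), while Ccl5, Ccl7, Ccl25 and Ccl28 were not called. Over all tested genes 60.7% were called, 30.9% higher and 29.8% lower, so a call by itself does not set these members apart. At least 2-fold differences were called for 15 of the 21, beside 23.6% of all tested genes. The median size of the log2 fold change was 2.04 over the 21 and 0.53 over all tested genes. Of the 20 members at 1 CPM, 6 reached that level in only 1 sex and so entered this set through the sex where they are high. Among the 14 that reached it in both sexes, 5 were higher, 6 lower and 3 not called.

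**Figure D1:**
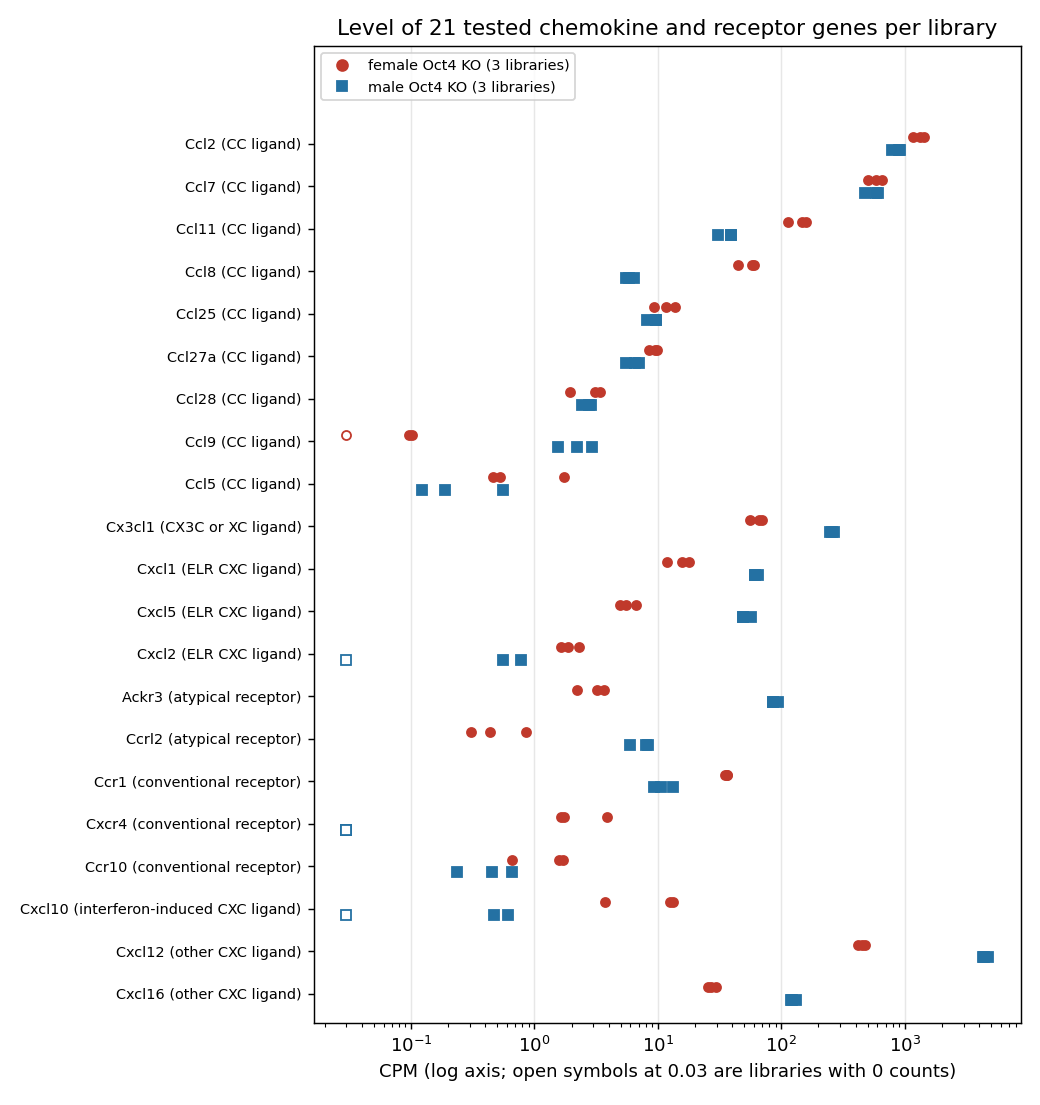
Level in CPM (log axis) of the 21 tested members, grouped by role, with 1 symbol per library for 3 female (circles) and 3 male (squares) Oct4 KO libraries; open symbols mark libraries with 0 counts. Cxcl12, Ackr3, Cxcl5, Cx3cl1 and Cxcl16 lie to the right in male libraries, and Ccl8, Ccl11, Ccr1 and Cxcl10 in female libraries, while the symbols of Ccl7, Ccl25, Ccl28 and Ccl5 overlap.

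The largest absolute difference was in Cxcl12, the ligand that retains and guides stem cells, leukocytes and growing vessels. Cxcl12 (ENSMUSG00000061353, mm10 chromosome 6, 117168535 to 117181367) stood at 446, 415 and 476 CPM in female against 4366, 4321 and 4757 CPM in male libraries. The groups did not overlap, and the male mean was 10.05-fold the female mean (log2 -3.33 ± 0.09, adjusted p = 5.6e-15). Per length, in RPKM (CPM per kilobase of gene length), Cxcl12 ranked 56 to 68 among all genes of the table in the male libraries and 764 to 852 in the female libraries.

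Both receptors of CXCL12 differed as well, and in opposite directions. Cxcr4 (ENSMUSG00000045382, chromosome 1, 128588199 to 128592293) encodes the signalling receptor of CXCL12. It had 34, 75 and 34 counts in female cells beside 0 in every male library, so its female mean of 2.40 ± 1.25 CPM (SD, n = 3) was at least 17.3-fold higher than the limit that 3 counts per male library set (adjusted p = 3.71e-06). Female replicate 2 was the highest of the 3, and the level was low in all of them.

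Ackr3 (ENSMUSG00000044337, chromosome 1, 90203980 to 90216751) encodes the atypical receptor that takes up CXCL12. It stood at 3.67, 3.23 and 2.23 CPM in female against 84.9, 93.5 and 86.4 CPM in male libraries, 29.0-fold higher in male cells (log2 -4.85 ± 0.14, adjusted p = 2.12e-14). Thus the ligand and its atypical receptor were both lower in every female library, and the signalling receptor was read in female libraries alone. The RPKM ratio of Cxcl12 to Ackr3 was 49.8, 52.6 and 87.5 in female against 21.1, 18.9 and 22.6 in male libraries, so it was lower in every male library.

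**Figure D2:**
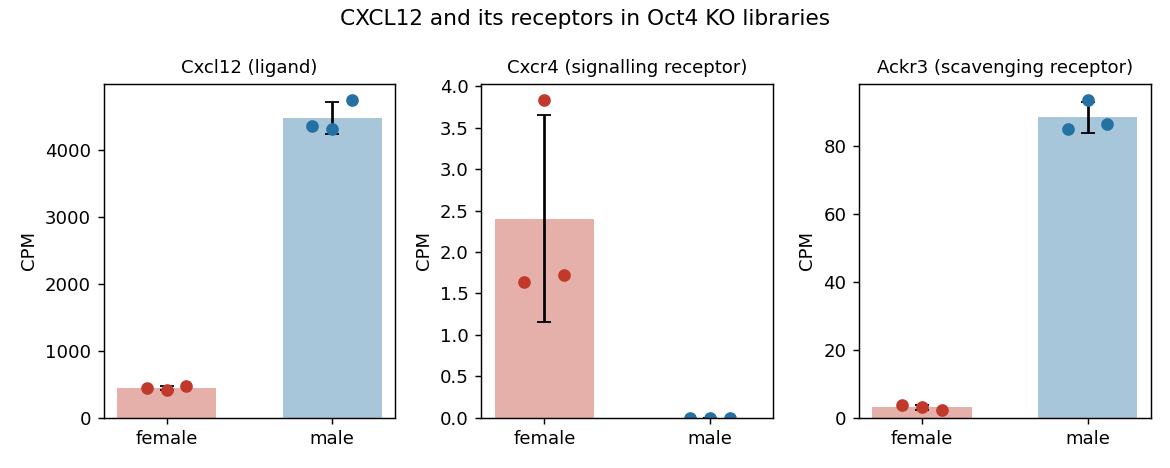
CPM of Cxcl12, Cxcr4 and Ackr3 in female and male Oct4 KO libraries; bars are means, error bars SD, and points the 3 libraries of a sex, each panel with its own linear axis from 0. Cxcl12 and Ackr3 are high in male libraries (4481 and 88.3 CPM on average), and Cxcr4 is read only in female libraries.

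Genes of the CC cluster on chromosome 11 that encode monocyte and eosinophil attractants were among the most abundant members. Ccl2 (ENSMUSG00000035385, 82035571 to 82037453), the main monocyte attractant, stood at 1168, 1420 and 1333 CPM in female against 905, 782 and 917 CPM in male libraries. Every female library lay above every male library, with a mean 1.51-fold higher (log2 0.59 ± 0.09, adjusted p = 2.11e-05). By RPKM Ccl2 ranked 19 to 22 among all genes in female against 34 to 49 in male libraries.

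Ccl7, a further monocyte attractant whose start lies 10.1 kb downstream of that of Ccl2, stood at 501, 657 and 589 CPM in female against 603, 585 and 477 CPM in male libraries. The groups overlapped and Ccl7 was not called (log2 0.07 ± 0.10, adjusted p = 0.58). This result turned on the length of the genes: with an offset for the length trend described below, Ccl7 was called higher in female cells (log2 0.65, adjusted p = 7e-05). The RPKM ratio of Ccl2 to Ccl7 was 1.52 to 1.64 in the female libraries, with 1.06 and 0.941 in male replicates 1 and 2 and 1.36 in male replicate 3.

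Ccl11 and Ccl8 showed larger differences than these 2 neighbours. Ccl11 encodes eotaxin, the eosinophil attractant, and stood at 113, 157 and 147 CPM in female against 39.0, 39.1 and 30.8 CPM in male libraries (log2 1.94 ± 0.12, adjusted p = 5.89e-10). Ccl8, a monocyte chemoattractant gene at the far end of the cluster, stood at 45.01, 57.7 and 59.6 CPM in female against 5.50, 6.35 and 5.84 CPM in male libraries (log2 3.20 ± 0.14, adjusted p = 3.27e-12). Neither gene overlapped between the sexes, and the mean of Ccl8 was 9.17-fold higher in female cells. With the length offset the fold change of Ccl8 was 3.86. Ccl12, which lies between Ccl11 and Ccl8, had 0 to 6 counts in every library and could not be tested.

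**Figure D3:**
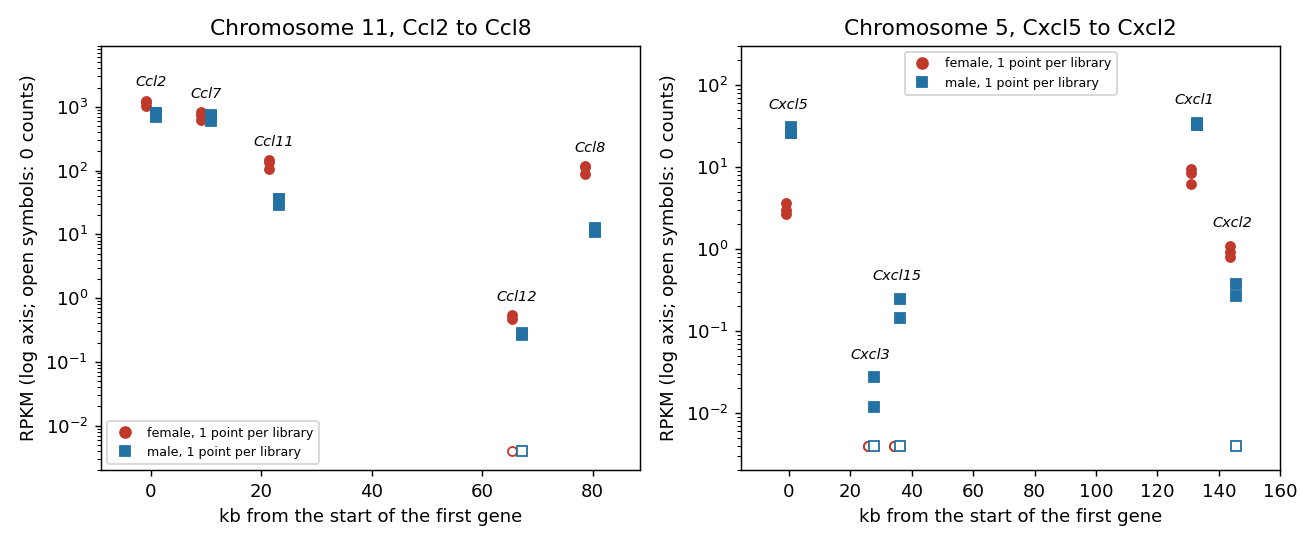
RPKM (log axis) of neighbouring ligand genes against the distance of their starts in kb from the first gene of the cluster, with 1 point per library and open symbols for 0 counts. On chromosome 11 the female points of Ccl2, Ccl11 and Ccl8 lie above the male points, and on chromosome 5 those of Cxcl5 and Cxcl1 lie below them while those of Cxcl2 lie above.

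The ELR ligands on chromosome 5, which draw neutrophils through CXCR2, did not move together. Cxcl5 stood at 4.97, 6.71 and 5.52 CPM in female against 56.6, 48.5 and 48.7 CPM in male libraries, 8.94-fold higher in male cells (log2 -3.16 ± 0.14, adjusted p = 3.33e-12). Cxcl1, the most abundant ELR ligand per length, stood at 15.8, 11.8 and 17.8 CPM in female against 60.7, 61.7 and 65.0 CPM in male libraries (log2 -2.04 ± 0.13, adjusted p = 4.91e-10). Both genes were lower in every female library.

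Cxcl2, the next gene after Cxcl1 among the members, went the other way at a low level. It had 39, 32 and 45 counts in female against 0, 11 and 19 in male libraries, or 1.93 ± 0.324 and 0.445 ± 0.402 CPM (SD, n = 3 each). The difference was called (log2 2.08 ± 0.65, adjusted p = 0.0101), and with a library left out the fold change ran from 1.51 without male replicate 1 to 2.80 without male replicate 3, called each time. Cxcl1 and Cxcl2, the neighbours that share the 10 letters shown above, were thus called in opposite directions. Cxcl15 had 11, 6 and 0 counts in the male libraries and 0 in each female library, Cxcl3 had 3 counts in all, and Cxcr2, the receptor gene of these ligands, had 1 count in 1 male library.

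The 2 ligands that are made as membrane-anchored proteins were both lower in female cells. Cx3cl1 encodes fractalkine, which holds monocytes to endothelium, and stood at 66.2, 55.8 and 69.1 CPM in female against 246, 257 and 265 CPM in male libraries (log2 -2.01 ± 0.09, adjusted p = 6.21e-12). Cxcl16, which also binds oxidised lipoproteins, stood at 25.7, 29.8 and 27.1 CPM in female against 122, 131 and 120 CPM in male libraries (log2 -2.18 ± 0.09, adjusted p = 2.2e-12). Male levels were 4.02- and 4.52-fold the female ones, with no overlap. Cxcl16 overlaps Zmynd15 on the opposite strand (1381 counts in all libraries beside 9723), and whether reads were told apart by strand is not given. Among their receptor genes, Cx3cr1 had 4 counts in female against 1 in male libraries, and Cxcr6 had 6, 4 and 5 counts in female cells beside 0 in every male library.

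Adam10 and Adam17, the genes of the proteases known to shed these 2 ligands, were higher in female cells, as were 30.9% of all tested genes. The median size of the log2 fold change over all tested genes was 0.53. A relation to the levels of the 2 ligands was not tested. Adam10 stood at 181 ± 12.1 and 118 ± 13.6 CPM (log2 0.62, adjusted p = 1.98e-05) and Adam17 at 167 ± 11.8 and 95.8 ± 4.21 CPM (log2 0.80, adjusted p = 2.47e-07) in female and male cells (SD, n = 3 each).

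The interferon-induced ligands were read almost only in female cells. Cxcl10, a T cell attractant, had 78, 261 and 246 counts in female against 10, 0 and 15 in male libraries, or 9.87 ± 5.30 and 0.364 ± 0.323 CPM (SD, n = 3 each). The groups did not overlap (log2 4.68 ± 0.56, adjusted p = 1.66e-06), although female replicate 1 was at 3.77 CPM beside 13.4 and 12.5 CPM. With a library left out the fold change ran from 4.13 without male replicate 2 to 5.30 without male replicate 3, called each time. Cxcl9 had 18, 0 and 10 counts in female cells beside 0 in every male library, and Cxcr3, the receptor gene of both ligands, had 9, 5 and 12 counts beside 0. Both failed the low-count filter. In an edgeR fit without that filter they were called higher in female cells (adjusted p = 0.00195 and 0.00314), as was Cxcr6 (0.0399). That fit also gave Ackr3 an adjusted p of 6.94e-271 beside 2.12e-14 with the filter, at the same SE of 0.14. Its calls therefore add nothing firm to the few counts. Cxcr6 overlaps Fyco1 on the opposite strand, which had 5776 counts beside 15, so its few counts are uncertain.

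Ligands known mainly from thymus, gut, skin and mucosa stood at low levels in both sexes. Ccl25 was at 11.6 ± 2.26 CPM in female and 9.17 ± 0.867 CPM in male cells (SD, n = 3 each) and was not called (log2 0.33 ± 0.17, adjusted p = 0.107), but it was without female replicate 2 (log2 0.47, adjusted p = 0.0277). Ccl28 was at 2.82 ± 0.787 and 2.68 ± 0.236 CPM and was not called (log2 0.07 ± 0.31, adjusted p = 0.864). Ccl27a was at 9.27 ± 0.722 and 6.35 ± 0.795 CPM and was called higher in female cells (log2 0.54 ± 0.18, adjusted p = 0.0147). That call was lost without male replicate 2 (adjusted p = 0.0557) and with total counts as the only scaling (0.0507). Ccl25 overlaps Elavl1 and Ccl27a overlaps Il11ra1, which had 13289 and 12266 counts in all libraries beside 1295 and 972, so the levels of both members are uncertain.

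Ccl9 and Ccl5, ligands of CCR1 that lie together on chromosome 11, were scarce. Ccl9 had 2, 0 and 2 counts in female against 33, 58 and 54 counts in male libraries, without overlap (log2 -4.95 ± 0.67, adjusted p = 7.48e-06, resting on 4 female counts). Ccl5 had 11, 9 and 34 counts in female against 4, 11 and 3 in male libraries and was not called (log2 1.66 ± 0.71, unadjusted p = 0.0315, edgeR adjusted p = 0.0516). Its groups overlapped, and without female replicate 3 its fold change was 0.80 (adjusted p = 0.435). Ccl5 was called higher in female cells without female replicate 2 (adjusted p = 0.0372) or male replicate 2 (0.0222), with the length offset (0.013) and among protein-coding genes only (0.0448).

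Of the 18 conventional receptors on chromosomes 3 reached 1 CPM, all were higher in female cells, and Cxcr4 and Ccr10 reached it only there. Ccr1, a receptor for several CC ligands on monocytes and other leukocytes, was the most abundant, at 36.4, 36.4 and 34.9 CPM in female against 13.3, 9.38 and 10.7 CPM in male libraries (log2 1.69 ± 0.13, adjusted p = 1.1e-08). Its groups did not overlap and the mean was 3.23-fold higher in female cells. Beside it, the leukocyte markers Ptprc, Adgre1, Fcgr1 and Cd3e had 0 counts in every library. Of the 5 markers of this list that could be tested, 3 were higher in female cells. They were Cd14 (63.9 ± 10.2 and 26.5 ± 2.47 CPM, log2 1.27), Cd68 (5.78 ± 1.07 and 2.41 ± 0.986 CPM, log2 1.25) and S100a8 (2.23 ± 0.731 and 0.405 ± 0.366 CPM, log2 2.48). Lyz2 was lower (9.89 ± 1.13 and 54.6 ± 6.03 CPM, log2 -2.46), and Csf1r was not called. The part of any macrophages in the level of Ccr1 was not tested. Ccr2, the CCL2 receptor gene that lies near Ccr1 on chromosome 9, had 0 counts in all 6 libraries.

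Ccr10, the receptor gene of CCL27 and CCL28, had 33, 33 and 13 counts in female against 5, 13 and 11 in male libraries and was called (log2 1.55 ± 0.55, adjusted p = 0.0234). Its lowest female and highest male library, at 0.659 and 0.656 CPM, were nearly equal. Leaving out any of 4 libraries ended the call: the adjusted p was 0.0957 and 0.098 without the first and the second female library, and 0.111 and 0.065 without the first and the third male library. Ccr10 also overlaps Cntnap1, which had 4800 counts beside 108.

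Of the 5 atypical receptors, Ackr3 and Ccrl2 reached 1 CPM and both were lower in female cells. Ccrl2, which binds the attractant chemerin and presents it to other cells, stood at 0.435, 0.307 and 0.862 CPM in female against 8.25, 8.02 and 5.92 CPM in male libraries (log2 -3.78 ± 0.35, adjusted p = 6.87e-08). The groups did not overlap, with a male mean 13.8-fold the female one. Ackr1, Ackr2 and Ackr4, which clear inflammatory or homeostatic ligands, had 1, 13 and 13 counts in all 6 libraries together.

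For 17 of the 21 tested members no female library fell within the male range or the reverse, beside 67.1% of all tested genes. The remaining 39 members on chromosomes were too scarce to test. Of these 16 had 0 counts in all 6 libraries, or up to 0.154 CPM by the limit of 3 counts (counting error only): the ligands Ccl1, Ccl6, Ccl19, Ccl20, Ccl21a, Ccl21b, Ccl22, Ccl24, Ccl26, Cxcl13 and Xcl1 and the receptors Ccr2, Ccr6, Ccr8, Cxcr1 and Cxcr5. The lymph node ligand Cxcl13 and its B cell receptor gene Cxcr5 were thus not detected at this depth. Nor were the lymph node ligands Ccl19 and Ccl21a, while Ccr7, the gene of their receptor, had 2, 7 and 1 counts in female against 0, 3 and 0 in male libraries. Another 23 members had 1 to 28 counts in all, 6 of them read only in female and 8 only in male libraries.

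The make-up of the summed ligand RNA per length differed between the sexes. The summed RPKM of the 37 ligands was 2213 ± 245 in female and 2222 ± 69.2 in male cells (SD, n = 3 each), and the ranges of the libraries overlapped. These sums carry no correction for the length trend described below, and the offset for it raised the female-to-male fold change of both Ccl2 and Ccl7, the main parts of the sum. Ccl2 made up 51.9% ± 0.721 of it in female and 34.3% ± 2.52 in male cells. Ccl7 made up 32.8% ± 0.92 and 31.2% ± 3.55. Cxcl12 made up 2.49% ± 0.363 and 24.7% ± 1.66, the largest shift of any ligand share. Ccl11 and Ccl8 together with Ccl2 and Ccl7 thus filled nearly all of the female ligand RNA, with 5.78% for Ccl11 and 4.77% for Ccl8.

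Receptor RNA was far scarcer than ligand RNA and was led by a different gene in each sex. The summed RPKM of the 23 receptors was 16.4 ± 1.16 in female and 33.6 ± 1.36 in male cells. Ccr1 made up 77.2% ± 3.83 of it in female and 11.7% ± 2.27 in male cells, and Ackr3 made up 5.50% ± 1.15 and 78.5% ± 2.36. Cxcr4 held 7.95% ± 3.61 of the female sum, and Ccrl2 held 8.46% ± 1.25 of the male sum.

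**Figure D4:**
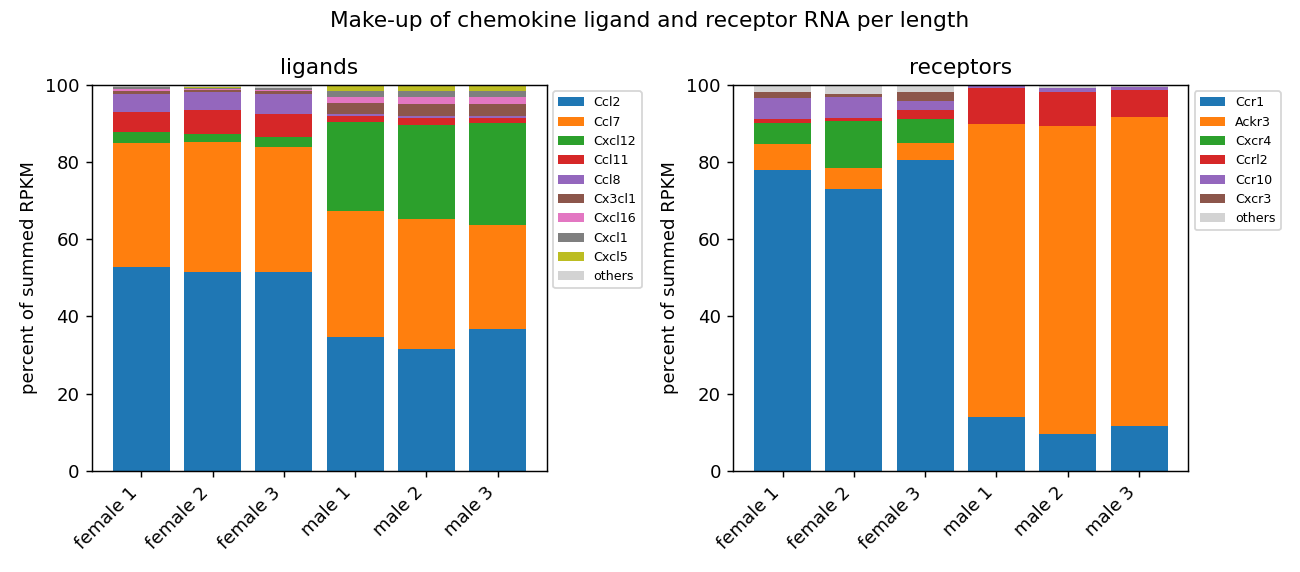
Percent of the summed RPKM of ligand genes (left) and receptor genes (right) taken by each named gene, 1 stacked bar per library. In the left panel the Cxcl12 segment widens from 2.49% on average in female to 24.7% in male libraries, and in the right panel Ccr1 fills most of the female and Ackr3 most of the male bars.

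Genes that act before chemokine transcription were called in both directions. Over all tested genes 30.9% were called higher and 29.8% lower, so a split of calls does not by itself set a list apart. Of 16 tested NF-kappaB genes 4 were higher in female cells, 6 lower and 6 not called, with a median log2 fold change of -0.18; with upper quartile scaling or total counts 9 were lower, and with the length offset 5 were higher and 4 lower. Rel, an NF-kappaB subunit gene, was at 17.9 ± 1.53 and 6.18 ± 1.56 CPM (log2 1.53), and Tnfaip3, a negative regulator, at 8.82 ± 0.466 and 19.9 ± 4.30 CPM (log2 -1.17) in female and male cells. Of 18 cytokine receptors and sensors 9 were higher, 7 lower and 2 not called (median log2 fold change 0.27). With the length offset 8 were higher and 5 lower, and the median was 0.19. Tlr4, the endotoxin receptor gene, was at 155 ± 15.5 and 25.1 ± 1.76 CPM (log2 2.62), and Il1rap, a subunit of the interleukin-1 receptor, at 210 ± 33.7 and 57.6 ± 2.47 CPM (log2 1.87).

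Among 11 interferon signal transducers 7 were higher, 3 lower and 1 not called (median 0.52). With the length offset 7 were higher and 3 lower, and the median was 0.27. Over all tested genes 30.9% were higher and 29.8% lower. Irf9 was at 58.5 ± 5.65 and 17.9 ± 0.479 CPM (log2 1.71) and Stat2 at 82.9 ± 5.45 and 24.8 ± 0.215 CPM (log2 1.74), while Jak2 was lower in female cells, at 87.3 ± 3.78 and 191 ± 7.12 CPM (log2 -1.13).

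Genes that act after transcription or at the cell surface were tested in the same way. Of 6 genes that control the decay of chemokine messages, Zfp36 and Rc3h1 were higher, Zfp36l2 was lower and 3 were not called. Zfp36, the gene of tristetraprolin, was at 71.4 ± 9.59 and 35.7 ± 2.29 CPM (log2 1.00), and Zfp36l2 at 129 ± 3.80 and 341 ± 52.2 CPM (log2 -1.40). Of 18 tested genes that present or cut chemokines, 13 were higher in female cells, 3 lower (Ext1, Ext2 and Sdc4) and 2 not called (median 0.89). With the length offset 14 were higher and 3 lower, and the median was 0.65. Gpc4, a heparan sulphate carrier, was at 517 ± 31.4 and 57.1 ± 7.14 CPM (log2 3.18), and Mmp2, a protease that cuts CXCL12 and CCL7, at 3365 ± 30.8 and 587 ± 35.2 CPM (log2 2.52). These counts stand beside a background of 30.9% higher and 29.8% lower.

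Of 19 tested genes that relay or end receptor signals 7 were higher, 7 lower and 5 not called. The shares over all tested genes were 30.9% higher and 29.8% lower. The largest differences were in Rgs5 and Rgs4, regulators that end G-protein signals: Rgs5 was at 0.756 ± 0.456 and 255.9 ± 10.15 CPM (log2 -8.40) and Rgs4 had 2, 0 and 1 counts in female against 443, 416 and 613 in male libraries (log2 -8.64). Rgs5 is known from pericytes and smooth muscle. Pericyte markers were not read as a list. Of the smooth muscle markers, Acta2, Lmod1 and Smtn were higher in male cells, Tagln was not called, and Myh11, Cnn1 and Des were too scarce to test. The part of such cells in the result for Rgs5 was not tested. In the other direction, Pik3r5, a regulatory subunit of the kinase used by these receptors, was at 70.3 ± 5.73 and 10.99 ± 0.826 CPM (log2 2.68). Pik3cg, the catalytic subunit gene of that kinase, had only 8, 12 and 9 counts in female against 0, 1 and 0 in male libraries and was not tested. Rgs2, a further regulator of the Rgs family, was at 120 ± 25.4 and 13.3 ± 0.133 CPM (log2 3.18). Dock2 and Rgs1, known mainly from leukocytes, had 0 counts in all 6 libraries. A list of genes outside the naming rule held 5 that could be tested: Cklf, a chemokine-like factor gene, and Cmtm3, of the same gene family, were higher, Mif and Cmtm7 lower, and Cmtm6 was not called. Mif, whose product also binds CXCR2 and CXCR4, was at 151 ± 17.8 and 389 ± 17.7 CPM (log2 -1.36). Pf4 had 4, 5 and 2 counts in the male libraries and 0 in the female libraries, and Ppbp had 2 counts in all.

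Chemokine genes are short, and the fold changes of all genes followed length. In 5 equal groups of tested genes at 5 CPM or more, ordered from short to long, the median log2 fold change was -0.40, -0.19, 0, 0.16 and 0.39. Of the 21 members 12 had a length within the shortest group (at most 2541 bases) and 1 within the longest. An offset that removes this trend in each library left all 17 calls in place with their directions and added Ccl7 and Ccl5 as higher in female cells. The fold change of Ccl2 went from 0.59 to 1.09 and that of Ccl11 from 1.94 to 2.45. Cxcl12, higher in male cells, came out with a larger difference (-3.33 to -3.60). Other members higher in male cells came out with smaller differences, among them Cxcl5 (-3.16 to -2.80), Cxcl1 (-2.04 to -1.69), Ccrl2 (-3.78 to -3.52), Cxcl16 (-2.18 to -1.97) and Ackr3 (-4.85 to -4.70). What the length trend reflects was not tested.

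**Figure D5:**
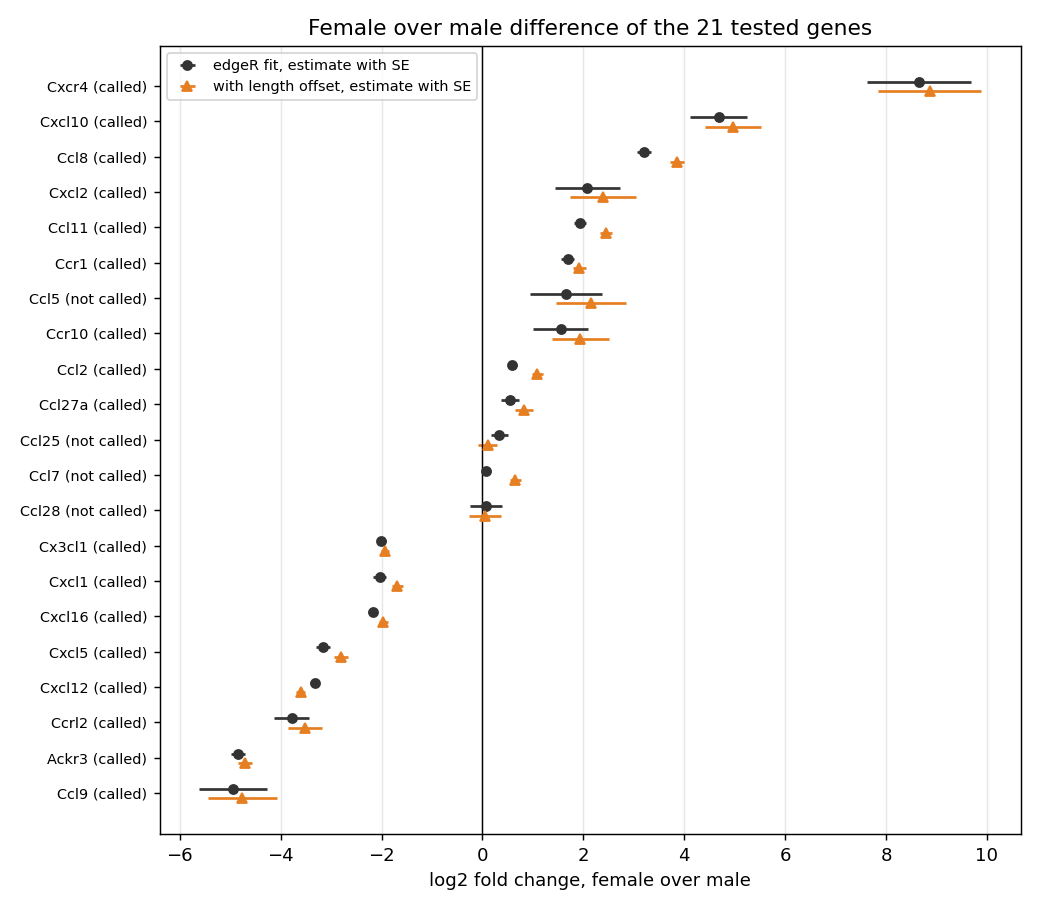
Log2 fold change, female over male, of the 21 tested members with SE, from the edgeR fit (circles) and with the offset for gene length (triangles). Ccl9, Ackr3, Ccrl2 and Cxcl12 are the lowest and Cxcr4, Cxcl10 and Ccl8 the highest in both fits, and Ccl7 moves away from 0 with the offset. The estimate of Cxcr4 rests on 0 male counts and depends on the prior count of the fit.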

How the data were processed

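Gene expression was measured by poly(A)-selected bulk RNA-seq in 6 libraries. The authors deposited raw read counts per gene, not normalised. The submitters' processing notes name HISAT2 2.0.5, featureCounts 1.5 and the build mm10. The strand and multi-mapping settings are not given in the sources used here. Library names tied columns to samples, and 0 other sample columns and 0 rows without a gene name were found. Library totals were 19299742 to 23064738 counts. Intervals and limits cover counting error only.

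From the counts, edgeR 4.0.16 (R 4.3.3) with filterByExpr, TMM factors, glmQLFit and glmQLFTest on sex alone gave two-sided p-values with Benjamini-Hochberg adjustment over all tested genes. The SE was taken as the absolute fold change (log2) over the root of F. It can understate the error where counts are few. CPM use the library size after the filter times the TMM factor (0.948 to 1.06). RPKM divide CPM by the gene length in the table. Members at 1 CPM or more in a sex were named, and of each pathway list up to 4 genes with the smallest adjusted p. Others, among them Adam10, Rc3h1, Ext2, Dcn, Pdpn, Fbln1, Flt4, Sdc4, Cd14, Lyz2 and those behind small counts, were chosen after their values were seen. The members and lists were chosen with earlier results of these data known. No library was a repeat of another: within a sex, chi-square over its degrees of freedom was 8.83 to 20.1. The fit was also run on simulated counts with few changed genes, evenly split by direction. Far more genes were called in the real counts, so that run does not check their scaling or error rate. Alternatives were DESeq2 1.42.0, limma-voom (limma 3.58.1), other scalings and filters, a length offset, a replicate block and each library left out.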

Additional observations from a re-analysis of the deposited data

How the results depend on the processing

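Over 16 alternatives, 15 of the 17 called members kept their direction and their call in every one. The exceptions were Ccr10 and Ccl27a, whose lost calls are given above. Members called higher in female cells numbered 9, and 8 to 12 under the alternatives. Those called lower numbered 8, and 8 or 9. DESeq2, limma-voom and RLE size factors gave 9 and 8, and no low-count filter gave 12 and 9, adding Cxcl9, Cxcr3, Cxcr6 and Cxcl15. Leaving out a library gave 8 to 10 higher and 8 lower. With total counts as the only scaling the median of all genes moved from -0.01 to -0.13. The replicate numbers of the sexes did not pair the libraries (correlation of deviations of same-numbered libraries -0.024, -0.114 and -0.164), and no library correlated best with its own number. With them as a replicate block 8 members were higher and 8 lower, and the call of Ccr10 was lost (adjusted p = 0.0517).

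Directions changed only for Ccl7 and Ccl28, neither of them called. Ccl7 was at -0.01 with upper quartile scaling and -0.05 with total counts, and between -0.04 and 0.17 with a library left out. Ccl28 was at -0.01 and -0.05 with those scalings, and between -0.10 and 0.28 with a library left out. Limma-voom gave 5.32 for Cxcl10, 3.08 for Cxcl2 and 6.59 for Cxcr4, each called. The cause of these shifts was not tested. Depth limits Cxcr4, Ccl9, Cxcl2, Ccr10 and Ccl5, which rest on few counts.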
